A study of Homo sapiens with 6 samples.

Results

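The cyclins of S and M phase, the kinases they activate and the phosphatases that switch these kinases on were followed across a knockdown of MEP50 in LNCaP cells. The group holds 10 genes chosen by symbol from the 63299 genes of the deposited count table: the cyclins CCNA2, CCNB1, CCNB2, CCNE1 and CCNE2, the kinases CDK1 and CDK2, and the phosphatases CDC25A, CDC25B and CDC25C. All 10 were on a reference chromosome and all 10 passed the filter on low counts, which left 21101 genes for testing. Members were chosen by name and role, not by a threshold on a measured value, but with earlier results of these data known.

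LNCaP is a human prostate cancer cell line. MEP50, encoded by WDR77, is the partner protein of the arginine methyltransferase PRMT5. LNCaP cells given doxycycline, which switches on a short hairpin RNA against MEP50 (MEP50 KD, labelled Dox+, 3 libraries), were set against LNCaP cells without doxycycline (No KD, labelled Dox-, 3 libraries). The labels give no dose, time or hairpin sequence and list no cells that received doxycycline without loss of MEP50, so an effect of the drug and an effect of the knockdown cannot be told apart. The libraries held from 18568002 to 36234784 reads on genes.

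A cyclin binds a cyclin-dependent kinase (CDK) and gives it its activity and its choice of targets. Cyclin E with CDK2 acts at the entry into S phase, cyclin A with CDK2 and then CDK1 acts through S phase and G2, and cyclin B with CDK1 drives mitosis. The kinases WEE1 and PKMYT1 hold the CDKs inactive by phosphorylating them, and the CDC25 phosphatases remove those phosphates. Transcripts of most of these genes rise and fall with the cell cycle, so in a bulk extract fewer cycling cells and less of each transcript per cycling cell cannot be told apart.

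The WDR77 transcript, the target of the hairpin, had 15.1, 14.0 and 12.7 CPM (read counts scaled to library size by TMM) in MEP50 KD replicates 1 to 3, against 49.3, 47.2 and 36.7 CPM in No KD replicates 1 to 3. This was a log2 fold change of -1.67 with a SE of 0.16 (edgeR quasi-likelihood test, adjusted p = 0.00131), and no MEP50 KD library reached a No KD library. Of the marker genes of LNCaP, 7 (KLK3, KLK2, FOLH1, HOXB13, TMPRSS2, KRT8 and KRT18) were each at 155.6 CPM or more in every library. Their summed level ran from 3279 to 3599 CPM in MEP50 KD and from 5863 to 7303 CPM in No KD. Of 5 markers of other cells, PTPRC, PECAM1, TP63 and KRT5 were at or near 0 and COL1A1 was at 5.32 to 14.3 CPM. The part of lower prostate transcripts in the results below was not tested.

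All 10 genes had lower fitted levels in MEP50 KD, with log2 fold changes from -1.24 for CDK2 to -0.25 for CCNE1. The median was -0.91, beside a median of 0.00 over all tested genes. Of all 21101 tested genes, 10499 had a negative log2 fold change. In every replicate pair (the MEP50 KD and the No KD library with the same number) each gene was lower in MEP50 KD, in 30 of 30 differences. The 10 genes share the same libraries, so these 30 differences are not independent of each other. The share of all tested genes lower in every pair was not computed. The labels do not state that libraries with the same number are paired. How many of the 10 genes passed the test depended on whether this pairing was used. The edgeR fit that ignores the replicate number called 1 of 10 lower, CDK2, at an adjusted p under 0.05, where 4.88% of all tested genes were called lower. With a block for the replicate number, edgeR called 9 of 10 lower, all but CCNE1, where 14.9% of all tested genes were called lower. That fit has 2 residual degrees of freedom and drew most of its estimate of spread from all genes (10.5 prior degrees of freedom). The block in limma-voom or DESeq2, tried after seeing the data, also gave 9, where 14.7% and 13.9% of all genes with an adjusted p were called lower. DESeq2 without the block called 5 (CCNA2, CCNB2, CDK2, CDC25A and CDC25B), where 7.25% were called lower, and limma-voom without the block called 2 (CCNB2 and CDK2), where 4.98% were called lower. At an unadjusted p under 0.05 the edgeR fit without the block had 8 of 10, beside 24.7% of all tested genes in either direction.

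**Figure D1:**
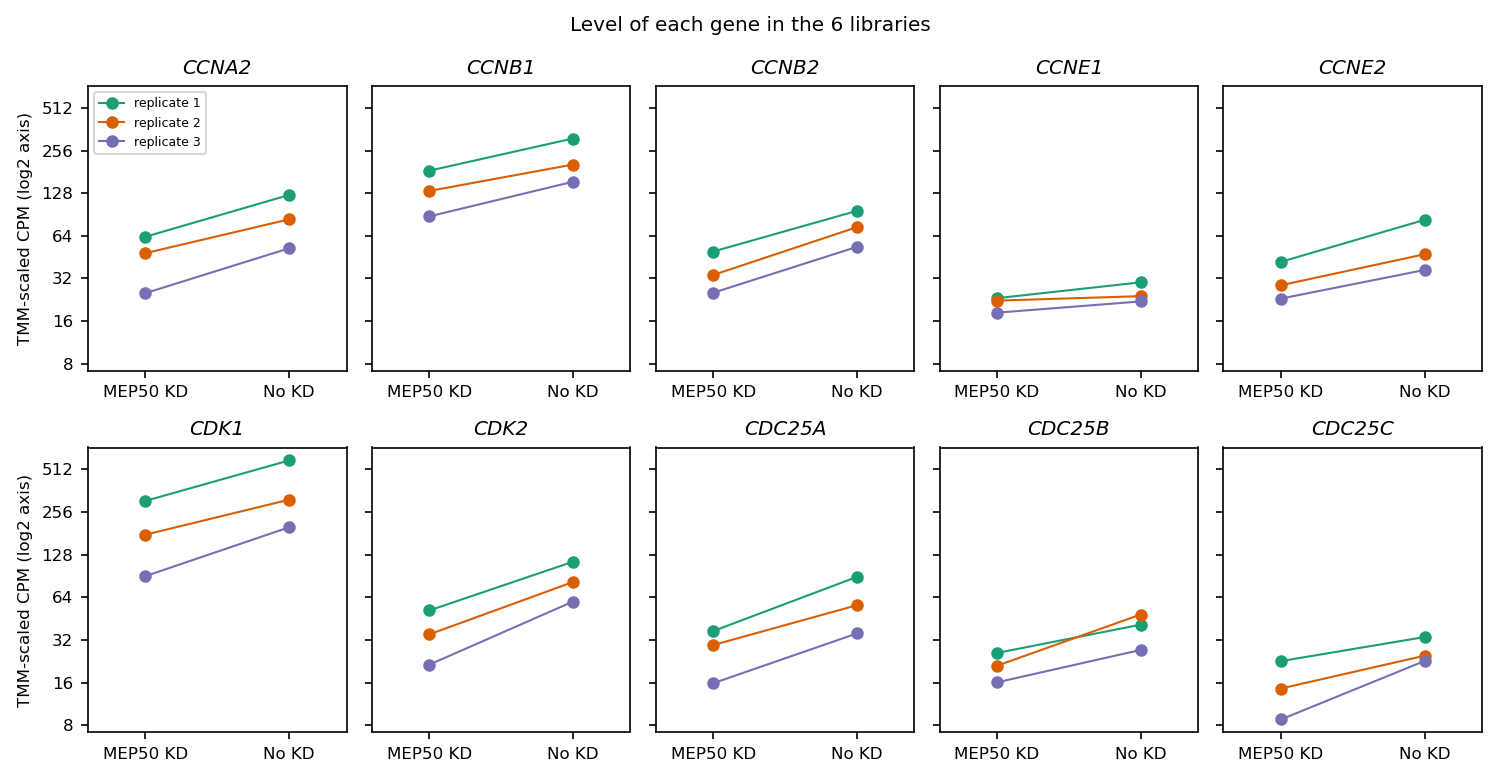
Level of each of the 10 genes in TMM-scaled CPM on a log2 axis, with MEP50 KD on the left and No KD on the right; each point is 1 library and lines join libraries with the same replicate number. Every line is lower at its MEP50 KD end, CCNE1 has the flattest lines, and the lines of CDK1 lie farthest apart.

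The spread between replicates was as large as the difference between groups for most of these genes. Replicate 3 was the lowest library in both groups for all 10 genes, and replicate 1 was the highest in both groups for 9, with CDC25B highest in No KD replicate 2. For 7 of 10 genes the replicate 1 libraries exceeded the replicate 3 libraries by more than the MEP50 KD libraries lay below the No KD libraries. Replicates 1 and 3 are the highest and the lowest of the replicate numbers, so this sets the widest replicate difference beside the group difference. The shares of all tested genes with these patterns were not computed. Averaged over the 10 genes, levels relative to the mean of the 6 libraries were 0.07, -0.39 and -1.01 log2 units in MEP50 KD replicates 1 to 3, against 0.93, 0.44 and -0.04 log2 units in No KD replicates 1 to 3. MEP50 KD replicate 1 thus stood above No KD replicate 3. The 3 median differences within pairs were -0.95, -0.81 and -1.06 log2 units. Group ranges without overlap, with all MEP50 KD libraries below all No KD libraries, were found for 4 of 10 genes (CCNB2, CDK2, CDC25B and CDC25C), beside 17.0% of all tested genes.

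**Figure D2:**
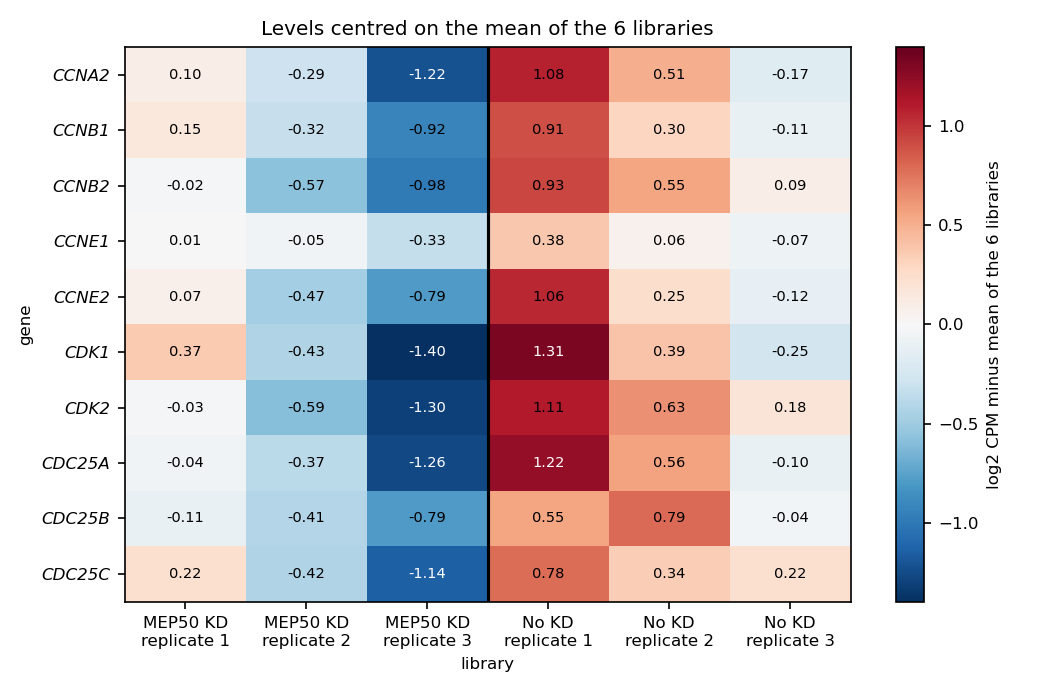
Log2 CPM of each gene minus its mean over the 6 libraries, with the MEP50 KD libraries in the 3 left columns and the No KD libraries in the 3 right columns. Within each group replicate 3 is the lowest column for every gene, and MEP50 KD replicate 1 (-0.11 to 0.37) lies close to No KD replicate 3 (-0.25 to 0.22).

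The promoters of several members hold the short words by which cell cycle genes are known to be regulated. These are the CHR (TTTGAA or TTTAAA), which the DREAM and MYBL2-MuvB complexes bind, the CCAAT box (CCAAT) of the factor NF-Y, and the E2F site (searched here as TTTNNCGC). RefSeq windows on GRCh38.p14, from 250 bases before to 50 after a transcript start, were matched by symbol for 8 members, 15 windows in all, and searched on both strands. CCNE2 and CDK2 had no window in that table. Among all 35116 windows of the table, 24.0% held a CHR, 34.6% a CCAAT box and 6.89% an E2F word. The windows are shown because 9 of the 10 genes fell in the paired comparison. A match describes these letters and does not show that a factor binds there.

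A CHR began 13 to 30 bases before a RefSeq start in CCNB1, CCNB2, CDK1, CDC25C and CCNE1. The 30 bases around it, 5′ to 3′ on the strand of the gene with the CHR in capitals, are:
CCNB1, chr5:69167108-69167137, plus strand: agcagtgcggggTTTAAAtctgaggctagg
CCNB2, chr15:59105105-59105134, plus strand: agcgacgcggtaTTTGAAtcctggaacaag
CDK1, chr10:60778453-60778482, plus strand: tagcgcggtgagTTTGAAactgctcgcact
CDC25C, chr5:138331817-138331846, minus strand: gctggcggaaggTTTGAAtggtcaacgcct
CCNE1, chr19:29811951-29811980, plus strand: gcgcgcagggatTTTAAAtgtcccgctctg
The first 4 belong to genes that fell in the paired comparison. CCNE1, which did not pass in either fit, has the word too. The range of 13 to 30 bases was read from these matches, and how many of all windows hold a CHR at that distance was not counted. Each stretch shown lies within the coordinates given below for its gene, so it is not upstream of the whole annotated gene. Of the 120 bases before the RefSeq start, all 120 were in annotated exons of the gene for CCNB1 and for the CDK1 window shown. The number was 93 for CCNE1, 73 for the CDC25C window shown and 68 for CCNB2. The other CDK1 window held CHRs that begin 161 and 131 bases before its start. The other CDC25C windows held no further CHR, and in 1 of them the CHR shown lies 43 bases after the start. TTTAAA reads the same on both strands. Among the CCAAT boxes of CCNB2, 3 begin 120, 87 and 54 bases before its start, in steps of 33 bases, and CCNB1 has 2 that begin 87 and 55 bases before its start. The CCNE1 window has no CCAAT box, and some windows of CDC25B and CDC25C have none either.

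CDC25A had no CHR in its window but an E2F word and CCAAT boxes close to the start. The 120 bases before the start (chr3:48188418-48188537, minus strand, no base of it in an annotated CDC25A exon of GENCODE 29) are shown 5′ to 3′ because CDC25A had the second largest log2 fold change of the group, with the E2F word (TTTGGCGC) and 2 CCAAT boxes (written ATTGG, since they lie on the other strand) in capitals:
CDC25A: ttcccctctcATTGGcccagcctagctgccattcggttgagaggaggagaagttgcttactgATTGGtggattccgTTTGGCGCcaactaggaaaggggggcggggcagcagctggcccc
CDK1 has E2F words as well, the nearest of which begins 27 bases before its second RefSeq start, upstream of the CHR shown. CCNA2 had a CCAAT box that begins 56 bases before the start and neither other word. The 4 windows of CDC25B held no E2F word, and 1 of them held a CHR, 32 bases after its start.

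Cyclin E and CDK2 act together at the start of S phase, and their 3 genes include the largest and the smallest log2 fold change of the group. CDK2, the kinase (ENSG00000123374.10, chr12:55966769-55972784, hg38), had 51.7, 35.1 and 21.4 CPM in MEP50 KD replicates 1 to 3, against 114, 82.1 and 59.8 CPM in No KD replicates 1 to 3. Its highest MEP50 KD library stayed below its lowest No KD library. CDK2 fell 2.37-fold (log2 fold change -1.24, SE 0.32, adjusted p = 0.0496, edgeR). With the block the value was -1.28 (SE 0.11, adjusted p = 5.18e-06), and each MEP50 KD library held 35.9% to 45.3% of the CPM of its pair. The call without the block rested near the threshold: it ended when any library other than MEP50 KD replicate 1 was left out (adjusted p up to 0.159), with upper-quartile scaling (0.0558) and with a filter at 1 CPM in 3 libraries (0.0515).

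CCNE1 and CCNE2 encode the 2 forms of cyclin E, and CCNE2 alone of the pair passed the test, with the block. CCNE1 (ENSG00000105173.13, chr19:29811898-29824308) had 23.2, 22.3 and 18.4 CPM in MEP50 KD replicates 1 to 3, against 30.1, 24.0 and 22.0 CPM in No KD replicates 1 to 3. The groups overlapped, and its log2 fold change was -0.25 without the block (95% interval -0.64 to 0.14, adjusted p = 0.407, edgeR) and -0.25 with it (95% interval -0.50 to 0.01, adjusted p = 0.152). Without the block CCNE1 moved to -0.07 when No KD replicate 1 was left out and to -0.16 when MEP50 KD replicate 3 was. CCNE2 (ENSG00000175305.17, chr8:94879770-94896678) had 41.9, 28.7 and 23.1 CPM in MEP50 KD replicates 1 to 3, against 83.0, 47.5 and 36.7 CPM in No KD replicates 1 to 3. MEP50 KD replicate 1 lay above No KD replicate 3, and the log2 fold change of CCNE2 was -0.84 without the block (SE 0.31, adjusted p = 0.136, edgeR) and -0.80 with it (SE 0.11, adjusted p = 0.000234). The value without the block moved to -0.39 when No KD replicate 1 was left out. The log2 ratio of CCNE1 to CCNE2 was higher in MEP50 KD in each pair, by 0.61, 0.62 and 0.41. Across groups that ratio ran from -0.85 to -0.33 in MEP50 KD and from -1.46 to -0.74 in No KD (difference 0.55, two-sided exact permutation p = 0.2, adjusted p = 0.6 over 6 ratios). With 3 libraries against 3 the smallest p this test allows is 0.1, so it could not pass the threshold.

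CCNA2 (ENSG00000145386.9, chr4:121816444-121823933), the gene of cyclin A2, serves both CDK2 in S phase and CDK1 later. It had 63.1, 48.3 and 25.2 CPM in MEP50 KD replicates 1 to 3, against 124, 83.7 and 52.3 CPM in No KD replicates 1 to 3. MEP50 KD replicate 1 was above No KD replicate 3, while in each pair the MEP50 KD library held 48.3% to 57.7% of the No KD level. Across groups CCNA2 differed by -0.93 on the log2 scale (SE 0.36, adjusted p = 0.152, edgeR) and -0.94 with the block (SE 0.10, adjusted p = 3.55e-05). The value without the block moved to -0.53 when No KD replicate 1 was left out.

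CDK1 (ENSG00000170312.15, chr10:60778331-60794852), the kinase of mitosis, was the member with the widest spread among replicates. It had 307, 177 and 90.4 CPM in MEP50 KD replicates 1 to 3, against 593, 313 and 200 CPM in No KD replicates 1 to 3. MEP50 KD replicate 1 lay well above No KD replicate 3 and close to No KD replicate 2, and levels within a group differed 3.40-fold in MEP50 KD and 2.96-fold in No KD. CDK1 gave a log2 fold change of -0.94 (SE 0.46, adjusted p = 0.247, edgeR) without the block and ran from -1.47 (without MEP50 KD replicate 1) to -0.38 (without No KD replicate 1) when 1 library was left out, with -0.61 without MEP50 KD replicate 3. With the block it was -0.97 (SE 0.11, adjusted p = 3.58e-05), and each MEP50 KD library held 45.2% to 56.7% of its pair.

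CCNB1 and CCNB2 encode the B cyclins that CDK1 binds in mitosis. CCNB1 (ENSG00000134057.14, chr5:69167010-69178245) had 185, 133 and 87.8 CPM in MEP50 KD replicates 1 to 3, against 312, 204 and 154 CPM in No KD replicates 1 to 3. CCNB1 gave a log2 fold change of -0.72 (SE 0.30, adjusted p = 0.177, edgeR) and -0.73 with the block (SE 0.10, adjusted p = 0.000175), and MEP50 KD replicate 1 was above No KD replicate 3. Leaving out No KD replicate 1 moved CCNB1 to -0.37 without the block. CCNB2 (ENSG00000157456.7, chr15:59105078-59125045) had 49.6, 33.9 and 25.4 CPM in MEP50 KD replicates 1 to 3, against 96.0, 73.6 and 53.5 CPM in No KD replicates 1 to 3. Here the groups did not overlap. The log2 fold change of CCNB2 was -1.04 (SE 0.27, adjusted p = 0.0516, edgeR) and -1.05 with the block (SE 0.10, adjusted p = 1.47e-05). The log2 ratio of CCNB1 to CCNB2 ran from 1.79 to 1.97 in MEP50 KD and from 1.47 to 1.70 in No KD, without overlap (difference 0.32, two-sided exact permutation p = 0.1, the smallest the design allows, adjusted p = 0.6 over 6 ratios). The test ignores the pairing, and within pairs this ratio was higher in MEP50 KD by 0.20, 0.50 and 0.26.

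CDC25A acts on both CDK2 and CDK1, and CDC25B and CDC25C act mainly at the entry into mitosis. CDC25A (ENSG00000164045.11, chr3:48157146-48188402) had 37.0, 29.5 and 15.8 CPM in MEP50 KD replicates 1 to 3, against 89.2, 56.3 and 35.6 CPM in No KD replicates 1 to 3. The groups met narrowly, with MEP50 KD replicate 1 just above No KD replicate 3. CDC25A gave a log2 fold change of -1.14 (SE 0.37, adjusted p = 0.0931, edgeR) and -1.12 with the block (SE 0.11, adjusted p = 1.86e-05). Leaving out No KD replicate 1 moved CDC25A to -0.70 without the block.

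CDC25B (ENSG00000101224.17, chr20:3786772-3806121) had 25.9, 21.1 and 16.1 CPM in MEP50 KD replicates 1 to 3, against 41.1, 48.4 and 27.2 CPM in No KD replicates 1 to 3. The groups did not overlap, and the log2 fold change of CDC25B was -0.89 (SE 0.24, adjusted p = 0.0589, edgeR) and -0.88 with the block (SE 0.13, adjusted p = 0.000355). CDC25C (ENSG00000158402.18, chr5:138285265-138338355) had 22.7, 14.5 and 8.79 CPM in MEP50 KD replicates 1 to 3, against 33.6, 24.8 and 22.8 CPM in No KD replicates 1 to 3. Its groups were separate only by the small gap between 22.70 CPM in MEP50 KD replicate 1 and 22.75 CPM in No KD replicate 3. CDC25C gave a log2 fold change of -0.82 (SE 0.31, adjusted p = 0.142, edgeR) and -0.89 with the block (SE 0.15, adjusted p = 0.00107), and -0.54 without the block when MEP50 KD replicate 3 was left out. The pair differences of CDC25C were the most uneven of the group, at -0.56, -0.77 and -1.36. Between groups the 3 log2 ratios among the CDC25 genes differed by -0.25 (CDC25A to CDC25B), -0.22 (CDC25A to CDC25C) and 0.02 (CDC25B to CDC25C), with two-sided exact permutation p of 0.6, 0.5 and 1 (adjusted p = 0.72, 0.72 and 1). Within pairs the sign of the difference was mixed for each of these 3 ratios. The pair differences were -0.61, 0.27 and -0.405 for CDC25A to CDC25B and -0.71, -0.17 and 0.20 for CDC25A to CDC25C. For CDC25B to CDC25C they were -0.10, -0.43 and 0.61. The log2 ratio of CDK1 to CDK2 differed by 0.31 (two-sided exact permutation p = 0.3, adjusted p = 0.6), and within pairs it was higher in MEP50 KD by 0.19, 0.41 and 0.33.

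**Figure D3:**
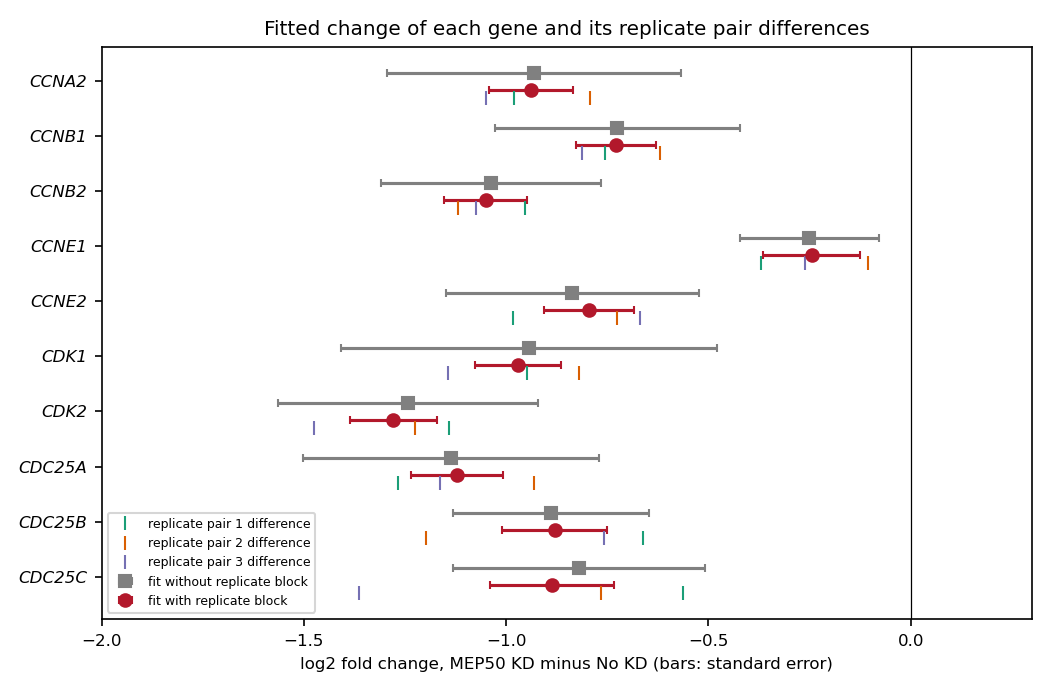
Log2 fold change (MEP50 KD minus No KD) of each gene from the edgeR fit without the replicate block (grey squares) and with it (red circles), with bars for the standard error and ticks for the difference in each replicate pair. The values of the fits lie close together (CDK1 -0.94 and -0.97), while the standard errors are narrower with the block (0.46 and 0.11 for CDK1), and CCNE1 lies nearest 0.

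Per length of transcript, CDK1 and CCNB1 were the most abundant of the 10 genes in both groups. In RPKM (CPM per 1000 bases of gene model), CCNB1 had 52.8 ± 18.9 in MEP50 KD and 87.3 ± 31.4 in No KD (SD, n = 3 each), and CDK1 had 48.7 ± 27.7 in MEP50 KD and 93.7 ± 51.4 in No KD. CCNA2, CCNB2 and CDK2 followed in that order in both groups, with mean levels of 16.3, 12.9 and 9.26 RPKM in MEP50 KD and 31.0, 26.6 and 21.9 RPKM in No KD. The other 5 genes had mean levels between 4.87 and 8.36 RPKM in MEP50 KD and between 8.87 and 14.7 RPKM in No KD. CCNE1 stood at rank 6 of 10 in MEP50 KD (8.36 ± 1.02 RPKM) and at rank 8 in No KD (9.95 ± 1.64 RPKM). CDC25A stood at rank 8 in MEP50 KD (6.66 ± 2.61 RPKM) and at rank 6 in No KD (14.7 ± 6.57 RPKM). Neighbours in either order differed by less than the larger of their SDs, apart from CDK1 and CCNA2 in MEP50 KD, CCNB1 and CCNA2 in No KD, and CDK2 and CDC25A in No KD.

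Some of these genes share ground with genes on the other strand, and the strand setting of the counting is not given in the sources used here. CCNE2 shares 1629 of its 4397 counted exon bases with INTS8, and INTS8 had a log2 fold change of 0.06 and a read total 289% of that of CCNE2. CDC25C shares 293 of 3047 bases with FAM53C (0.02), whose read total was 601% of that of CDC25C. CCNA2 shares 254 of 2798 bases with EXOSC9, which had a log2 fold change of -0.53 (adjusted p = 0.169, edgeR; 0.00258 with the block) and a read total 71.9% of that of CCNA2. CDK2 shares 565 of 3894 bases with RP11-973D8.4 and 89 with PMEL, whose log2 fold changes were -1.03 and -1.26 and whose read totals were 14.5% and 17.5% of that of CDK2. In edgeR, PMEL was called lower without the block (adjusted p = 0.0337) and with it (5.17e-05). RP11-973D8.4 was called lower only with the block (adjusted p = 0.113 without and 0.000778 with it, edgeR). The part of reads from these partners in the values of the 4 genes was not tested. The pseudogene CCNB2P1 held 0.129% as many reads as CCNB2.

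Among 35 other regulators of CDK1 and CDK2, 34 passed the filter, and CCNA1 (at most 0.268 CPM) did not. CDK3, a relative of CDK2, had -0.43 and passed in neither edgeR fit. The fit without the block called 6 lower (CCNF, CKS1B, PKMYT1, PLK1, ARPP19 and CDKN1B) and 1 higher (CCNB3), where 4.88% of all tested genes were lower and 2.72% higher. Over all genes that is 1029 lower and 574 higher, a split that turned to 722 lower and 894 higher with upper-quartile scaling, which moved the median of all genes to 0.12 and left that of the 10 genes at -0.79. The fit with the block called 17 lower and 6 higher, where 14.9% were lower and 11.2% higher. The median log2 fold change of the 34 was -0.45, beside -0.91 for the cyclins, CDKs and CDC25 genes.

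Of the kinases that oppose CDC25, PKMYT1 fell in both fits. PKMYT1, which phosphorylates CDK1 at membranes, had 13.6, 14.8 and 7.74 CPM in MEP50 KD replicates 1 to 3, against 33.1, 46.4 and 20.8 CPM in No KD replicates 1 to 3 (log2 fold change -1.47, SE 0.32, adjusted p = 0.0282, edgeR). That call was lost without MEP50 KD replicate 2 or 3 or No KD replicate 1 or 2 (adjusted p up to 0.0704). WEE1 had a log2 fold change of -0.47, which passed with the block (adjusted p = 0.202 without and 0.00577 with it). WEE2, a relative of WEE1 known from the oocyte, was at 1.07 to 1.83 CPM in MEP50 KD and 0.60 to 1.11 CPM in No KD (0.93, adjusted p = 0.132 without and 0.0306 with the block).

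The small CDK-binding subunit gene CKS1B fell in both fits, with 11.2, 8.19 and 6.69 CPM in MEP50 KD replicates 1 to 3, against 34.8, 22.7 and 21.9 CPM in No KD replicates 1 to 3. CKS1B gave a log2 fold change of -1.61 (SE 0.25, adjusted p = 0.00834, edgeR) and was called whichever library was left out. Its relative CKS2 had -0.57 (adjusted p = 0.277 without and 0.00152 with the block). CCNF, the gene of the ubiquitin ligase subunit cyclin F, fell by 1.02 on the log2 scale (adjusted p = 0.0447, edgeR), a call lost without MEP50 KD replicate 2 or 3 or No KD replicate 1 or 2 (up to 0.157). CCNB3, a cyclin B relative known from meiosis, rose by 1.00 at a low level (5.32 ± 1.54 CPM in MEP50 KD and 2.63 ± 0.30 CPM in No KD, SD, n = 3 each; adjusted p = 0.0475, edgeR), and that call ended whichever library was left out (up to 0.123). The subunits of the CDK-activating kinase, CDK7, CCNH and MNAT1, had log2 fold changes of 0.21, 0.29 and -0.12. The edgeR fit without the block called 0 of the 3, where 4.88% of all tested genes were called lower and 2.72% higher. At an unadjusted p under 0.05 that fit had 0 of the 3, beside 24.7% of all tested genes in either direction. The edgeR fit with the block called CCNH higher (adjusted p = 0.0462), where 11.2% of all tested genes were called higher.

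In the Greatwall pathway, which blocks the phosphatase PP2A-B55 so that CDK1 targets stay phosphorylated, the changes were uneven. ARPP19, an inhibitor of PP2A-B55, had 93.1, 69.4 and 67.5 CPM in MEP50 KD replicates 1 to 3, against 417, 309 and 314 CPM in No KD replicates 1 to 3. It fell 4.53-fold (log2 fold change -2.18, SE 0.18, adjusted p = 0.000667, edgeR), with pair differences of -2.16, -2.15 and -2.22, and was called whichever library was left out. Its replicates within a group differed by no more than 1.38-fold. Its paralog ENSA had -0.50 (adjusted p = 0.0774 without and 0.00321 with the block) and the kinase MASTL, which activates both, had -0.67 (0.133 without and 0.00085 with the block). PPP2R2A and PPP2R2D, subunits of PP2A-B55, had -0.24 and 0.12 and passed in neither fit.

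Among the checkpoint and Polo inputs to CDC25 (kinases and BORA, a cofactor of AURKA and PLK1), PLK1 fell without the block (-1.27, adjusted p = 0.0289, edgeR), a call lost without MEP50 KD replicate 2 or 3 or No KD replicate 1 or 2 (up to 0.118). AURKA (-1.11), BORA (-0.82), CHEK1 (-0.63) and CHEK2 (-0.62) (all values without the block) passed in the edgeR fit with the block and not in that without it (adjusted p with the block = 1.32e-05, 0.00988, 0.00085 and 0.00181), and DESeq2 without the block also called AURKA and BORA. PLK3 had 0.51 and was called higher with the block (0.0349). Among CDK inhibitors, CDKN1B (p27) fell in both fits (-0.87, adjusted p = 0.00678, edgeR) and was called whichever library was left out. CDKN1A (p21) had 0.48 and was called higher with the block (0.0092) and not in the edgeR fit without it (0.13). CDKN1C was under 1 CPM in every library and passed in neither fit.

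Of 9 genes that act in the destruction of cyclins and of their regulators, the edgeR fit with the block called 3 lower and 1 higher. Among all tested genes that fit called 14.9% lower and 11.2% higher. The edgeR fit without the block called 0 of the 9, with 4 at an unadjusted p under 0.05 beside 24.7% of all tested genes, while DESeq2 without the block called FBXO5 and CDC20. With the block, FBXO5, the inhibitor of the anaphase-promoting complex, had -1.21 (adjusted p = 2.84e-05, edgeR), its activator CDC20 had -1.11 (1.25e-05) and FBXW11, a subunit of the ligase that degrades CDC25A, had -0.47 (0.00428). FBXW7, which targets cyclin E, was higher by 0.41 (0.0141). SKP2, BTRC, CUL1, SKP1 and FZR1 had log2 fold changes without the block of -0.17, 0.22, -0.26, -0.27 and -0.01 and passed in neither edgeR fit.

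**Figure D4:**
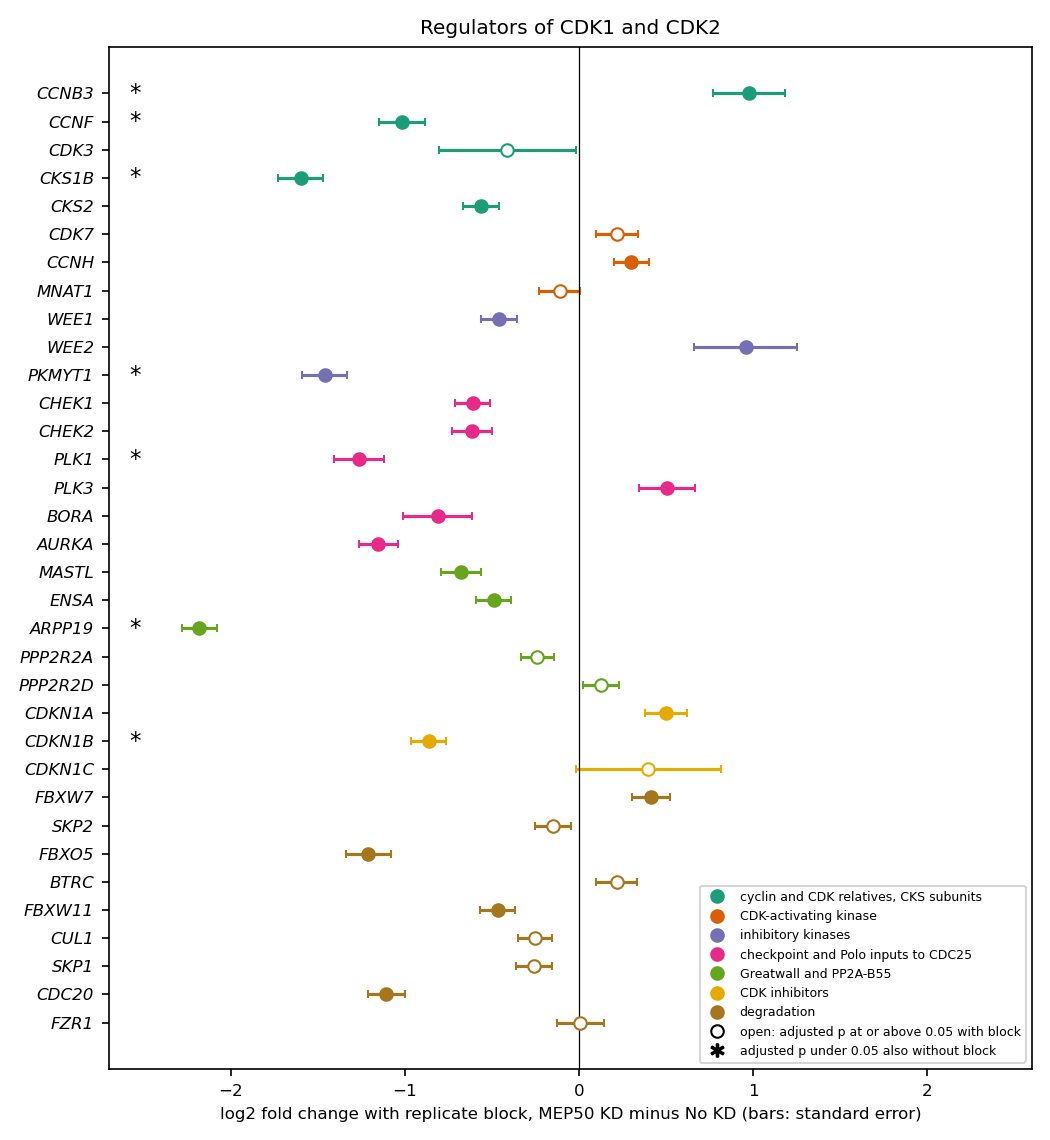
Log2 fold change with the replicate block (MEP50 KD minus No KD) of the 34 tested regulators of CDK1 and CDK2, coloured by role, with bars for the standard error; filled points have an adjusted p under 0.05 and stars mark genes also called without the block. ARPP19 (-2.18), CKS1B (-1.60) and PKMYT1 (-1.46) lie farthest below 0, and CCNB3 (0.98) and WEE2 (0.96) farthest above.

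Outside the 10 genes and these regulators, the tested genes whose centred levels over the 6 libraries lay nearest to the mean profile of the 10 were ASPM, FEN1, MCM7, KIAA1524 and BLM. Their root mean square differences from that profile were 0.0451, 0.0467, 0.0475, 0.0494 and 0.0495 log2 units over 6 libraries. Among the 10 genes themselves that distance ran from 0.0878 for CCNB1 to 0.417 for CCNE1, with CDK1 at 0.267. These 5 were picked for that likeness out of all tested genes, so their small distances and their log2 fold changes, from -0.97 to -0.83 without the block, follow from the choice.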

How the data were processed

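RNA sequencing libraries were made from LNCaP cells with Trizol extraction and a TruSeq RNA kit, per the labels' protocols. The authors deposited raw counts, as whole numbers, for each gene in each of the 6 libraries. Reads had been handled with bcl2fastq, STAR 2.5, the hg38 build, featureCounts of Subread 1.6.5 and edgeR 3.20.8, per the submitters' processing notes; annotation release and strand setting are not given in the sources used here. Gene length, used for RPKM, is the other deposited column used.

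Counts were fitted here for all genes with edgeR 4.0.16 in R 4.3.3 (TMM scaling, filterByExpr, quasi-likelihood F test, two-sided, Benjamini-Hochberg adjustment over 21101 genes, calls at an adjusted p under 0.05). Log2 fold changes are MEP50 KD minus No KD, with SE derived from the F statistic. CPM and RPKM are TMM-scaled, and centred levels and ratios use log2 CPM with a prior count of 2. The primary model has no block. The series text calls the replicates biological. The labels do not state a paired design, so pairing by replicate number is an assumption, backed only by these same data. Deviations from group means correlated at 0.554, 0.381 and 0.358 over tested genes for the same number, and from -0.39 to 0.0602 for different numbers. Deviations within a group cancel out, so the values for different numbers are not separate evidence. With the block the fit leaves 2 residual degrees of freedom, against 4 without it, and its biological coefficient of variation was 11.9%, against 20.8%. Counts of libraries in a group differed by far more than sampling noise. The fit without the block was run on simulated data with known changes and no replicate effect. The fit with the block was not tested this way. DESeq2 1.42.0, limma-voom (limma 3.58.1), other scalings, other filters and left-out libraries were the alternatives; the block in limma-voom, DESeq2 and robust edgeR was added after seeing the data.

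Members and lists were chosen with earlier results of these data known. The genes named are the 10 members, WDR77, all of the regulator list, the markers, the genes that overlap a member, and the 5 genes nearest the mean profile; the overlapping genes were chosen after their values were seen. A marker from the list fixed for LNCaP is not reported here.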

Additional observations from a re-analysis of the deposited data

How the results depend on the processing

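The direction of all 10 genes was negative in each alternative run, but calls were not stable. Of the 10 genes, 1 was called in the fit without the block (8 at an unadjusted p under 0.05), 1 with RLE scaling, 0 with upper-quartile scaling and 0 with a filter at 1 CPM in 3 libraries (7 at an unadjusted p under 0.05 in each), 9 without a low-count filter, 5 in DESeq2, 2 in limma-voom and 9 with the replicate block. Leaving out 1 library gave 0 to 4 (3 to 9 at an unadjusted p under 0.05), and the replicate block without 1 pair gave 9 each time; those fits have 1 residual degree of freedom and took their spread nearly or wholly from all genes, as did the fit without a filter. The replicate block in limma-voom, DESeq2 or robust edgeR, added after seeing the data, gave 9 of 10 each, 23, 21 and 23 regulators, and 5402, 4474 and 5666 genes. Among the regulators, 7 were called in the fit without the block, 18 without a filter, 11 in DESeq2, 23 with the replicate block, 3 to 8 without 1 library and 15, 23 and 21 with the block without pair 1, 2 and 3. Over all genes, 1603 calls became 3148 without a filter, 5506 with the replicate block, 497 to 1423 without 1 library, and 3158, 7409 and 4572 with the block without pair 1, 2 and 3. The calls lower in MEP50 KD were 329 to 923 without 1 library, and 1786, 3761 and 2624 with the block without pair 1, 2 and 3. At an unadjusted p under 0.05, in either direction, there were 5219 genes in the fit without the block and 3963 to 6174 without 1 library. Shares of tested genes were not computed for the runs without 1 library or 1 pair. The median log2 fold change of the 10 genes, -0.91, ran from -1.23 to -0.56 without 1 library and from -0.96 to -0.89 with the block without 1 pair. Upper-quartile scaling moved the median of all genes to 0.12 and the calls to 722 lower and 894 higher, from 1029 and 574, and the median of the 10 genes to -0.79. The sign of uncalled genes turned for FZR1 (0.0033 with RLE, 0.11 with upper-quartile scaling, 0.037 with the 1 CPM filter, 0.0032 in DESeq2, 0.0074 in limma-voom, 0.0067 with the replicate block and with robust edgeR, 0.020 with the block in DESeq2, -0.10 to 0.18 without 1 library, with 0.0042, 0.012 and 0.18 without MEP50 KD replicate 2, MEP50 KD replicate 3 and No KD replicate 2, 0.23 with the block without pair 2), MNAT1 (0.0077 with upper-quartile scaling, 0.0066 with the block without pair 1), SKP2 (-0.34 to 0.12 without 1 library, above 0 only without No KD replicate 1), PPP2R2D (-0.00028 to 0.24 without 1 library, below 0 only without No KD replicate 3) and CDK3 (0.0089 with the block without pair 3). The cause of the other changes was not tested. Fits without 1 library leave a group with 2 libraries and ignore the pairing.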
